A study of Mus musculus with 41 samples.

Results

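Krt5-expressing tumors were mouse mammary tumors chosen by their measured level of Krt5, the keratin of basal mammary epithelial cells (a value of at least 1000 in a normalised gene expression table), and they were compared between 2 genotypes. Of 41 tumors sequenced, 18 met this rule, 8 of the 28 Plk2-/-; p53-/- tumors (called Plk2-null) and 10 of the 13 p53-/- tumors (called p53-null). All were untreated mammary tumors of Balb/c mice grown orthotopically in syngeneic hosts, and both genotypes lacked p53, so the comparison was of Plk2 loss on a p53-null background. For the Plk2-null tumors, Plk2-/- mice were backcrossed to Balb/c before the cross with p53-/- mice, and their mammary epithelial cells were transplanted into wild-type hosts whose own epithelium had been removed, where tumors arose after a long latency. The labels give no lineage, donor or passage, so tumors of a group may share an origin, and the p-values then measure only the spread between these samples. Every p53-null library title carried ROSEN and a number and no Plk2-null title did, so genotype and library batch cannot be told apart. The value of a gene was its gene-level read estimate, scaled so that the upper quartile of each tumor's nonzero genes was 1000.

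Basal, or myoepithelial, cells form the outer layer of the mammary duct and carry the keratin pair Krt5 and Krt14 and the transcription factor Trp63, whereas the inner, luminal cells carry Krt8 and Krt18. Mammary tumors lacking p53 range from basal-like to luminal and claudin-low forms, so a comparison of genotypes within Krt5-expressing tumors holds a part of that range apart. Plk2 encodes a polo-like kinase that is induced by stress and is known for its part in centriole duplication and in the orientation of the mitotic spindle, and its relative Plk1 drives entry into and passage through mitosis.

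Krt5 chose the tumors, so its values are a description. Krt5 ran from 2851 to 36679.6 (median 9474) in Plk2-null tumors and from 2590.2 to 57477 (median 15206) in p53-null tumors. No tumor lay near the threshold. The tumors just inside it were p53null-5317 at 2590.2, PLK2null-1970 at 2851 and p53null-2396R at 2979.5, and those just outside it were PLK2null-7753 at 594 and p53null-7435 at 434. Krt14, the partner of Krt5, ran from 253 to 4931 (median 1829.8) in Plk2-null tumors and from 1038 to 80243 (median 7629.6) in p53-null tumors. In 4 Plk2-null tumors (PLK2null-1964, PLK2null-1965, PLK2null-7747 and PLK2null-7763) Krt14 was below 1000, whereas all 10 p53-null tumors were above it. Trp63 ran from 584 to 7601 (median 6272) in Plk2-null tumors and from 929.7 to 6309 (median 2517) in p53-null tumors, and every Krt5-expressing tumor held both Trp63 and luminal keratin. Krt18 ran from 2832 to 37086 (median 10384) in Plk2-null tumors and from 16732 to 95209.6 (median 36322) in p53-null tumors. The label was therefore met for Krt5 in all 18 tumors and for Krt14 at the same level in 14 of them, and none was free of luminal keratin RNA.

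**Figure D1:**
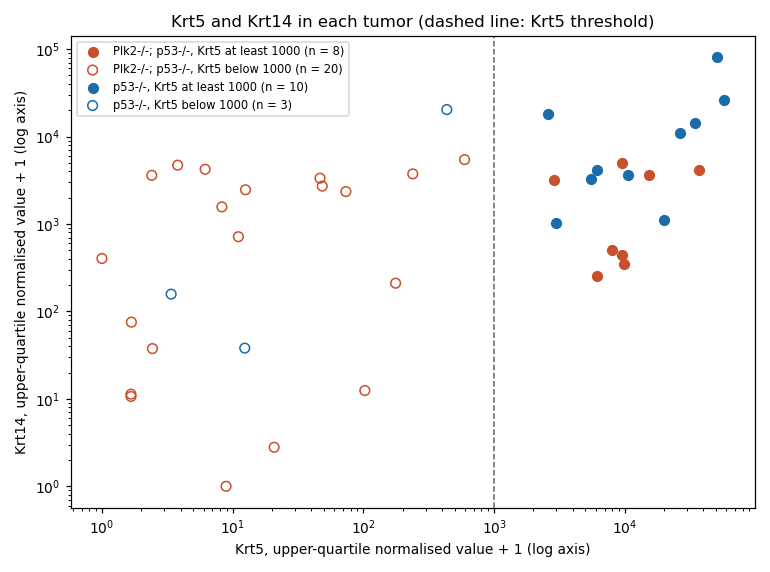
Krt14 against Krt5 in each of the 41 tumors, as upper-quartile normalised value plus 1 on log axes, with colour for genotype and filled points for Krt5 of at least 1000 (dashed line). The filled points all lie right of 2590.2 on the Krt5 axis, and 4 of the 8 filled Plk2-null points lie below 1000 on the Krt14 axis.

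Estimated sequencing depth ran from 29409598 to 70868089 fragments over the 18 tumors, so a floor of 3 reads was worth 1.16 to 2.45 in normalised value. Some Plk2-null tumors were alike. The profiles of PLK2null-1963, PLK2null-1964, PLK2null-1965 and PLK2null-7747 along the chromosomes (221 windows of 50 genes) correlated with each other at 0.796 to 0.904, whereas the other Plk2-null pairs ran from -0.161 to 0.456 and the p53-null pairs from -0.398 to 0.607. These 4 also held Mdm2, the ubiquitin ligase that removes p53, at 13406 to 19585, against 1052 to 2147 in the other 4 Plk2-null tumors. Results were therefore also computed with these 4 averaged, which leaves 5 Plk2-null units.

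The 2 sets of libraries also differed in kinds of RNA that are not tied to a pathway. Among 252 tested genes of the annotation classes TEC (unconfirmed transcripts) and sense intronic, 193 were higher in Plk2-null tumors and 0 lower, with a median log2 difference of 1.94 in Krt5-expressing tumors and 1.64 in tumors below the threshold. For each tumor, the deviation of these genes from their medians over the Krt5-expressing tumors was taken. Its median was positive in all 28 Plk2-null tumors (0.427 to 1.41) and negative in all 13 p53-null tumors (-1.54 to -0.120), Krt5-expressing or not. Malat1, a long noncoding RNA retained in the nucleus, ran from 11997 to 23061 (median 15109) in Plk2-null tumors and from 778 to 3729 (median 2262) in p53-null tumors, a log2 difference of 2.98 ± 0.27 (adjusted p = 5.94e-07), and its difference in tumors below the threshold was 2.63. Among protein-coding genes the median log2 difference rose with transcript length, from -0.37 in the decile of shortest transcripts to 0.72 in the decile of longest in Krt5-expressing tumors and from -0.35 to 0.38 below the threshold. Length, GC content and gene span were therefore also corrected for within each tumor, over the protein-coding genes. The part of these library differences in the results that follow was not tested beyond that correction.

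**Figure D2:**
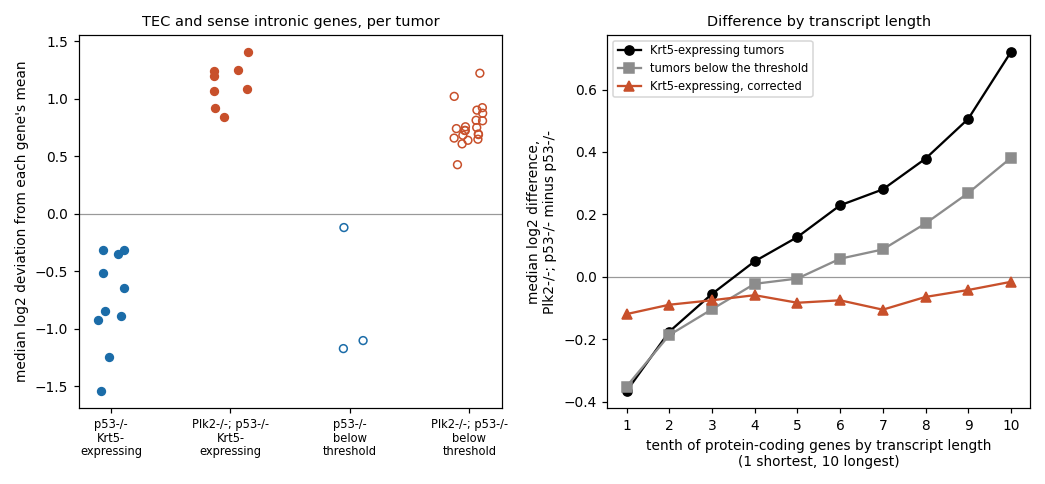
Left, the median log2 deviation over TEC and sense intronic genes for each tumor (points), by genotype and Krt5 class. The deviation is from each gene's median over the Krt5-expressing tumors, which the axis label calls its mean. Right, the median log2 difference between genotypes in each decile of protein-coding genes by transcript length. All 28 Plk2-null points lie above 0 and all 13 p53-null points below 0 on the left, and on the right the uncorrected median runs from -0.37 to 0.72 whereas the corrected one runs from -0.12 to -0.02.

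Across all genes, 17161 were tested on log2(value + 1), and 4863 differed at an adjusted p below 0.05 (28.3% of those tested), 3665 higher in Plk2-null tumors (21.4%) and 1198 lower (6.98%). The median gene was 0.21 higher on the log2 scale, so the differences here are best read against that value. Scaling by a weighted trimmed mean of log ratios (TMM) in place of the upper quartile moved the median to -0.03 and turned the split of 75.4% higher into 49.5% higher (2305 higher and 2348 lower, 27.1% in all). With the length, GC and span correction 1778 of 14447 genes were called (12.3%, 5.79% higher and 6.51% lower), with 5 Plk2-null units 2393 of 17161 (13.9%), and with both 221 of 14447 (1.53%). Of these 221, 202 were called in the same direction without either step. A fold from log2(value + 1) understates the change of low genes.

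Plk2 (chromosome 13, 110395046 to 110400844 on the plus strand, GRCm38) was the targeted gene. Its value ran from 83.3 to 553 (median 255) in Plk2-null tumors and from 921 to 8028 (median 3441) in p53-null tumors. The groups did not overlap, at a log2 difference of -3.85 ± 0.41 (adjusted p = 3.02e-06), and the adjusted p was 0.00423 with 5 units and the correction. Every Plk2-null tumor still held Plk2 reads above the floor. Which exons the null allele removes is not given in the sources used here. Plk4, the kinase that starts centriole duplication, was higher, from 881 to 1331 (median 986) in Plk2-null tumors and from 264 to 1555 (median 585) in p53-null tumors, at 0.76 ± 0.27 (adjusted p = 0.039). This call did not hold with the correction (adjusted p = 0.46) or with 5 units (adjusted p = 0.147). Plk1 differed by 0.29 ± 0.34 (adjusted p = 0.565) and Plk3 by 0.02 ± 0.26 (adjusted p = 0.967). Plk5 was low, from 1.64 to 18.1 in Plk2-null tumors and from 2.11 to 50.4 in p53-null tumors, and differed by -0.65 ± 0.50 (adjusted p = 0.364). None of these 3 passed the test. Trp53 reads were present in both genotypes, from 1726 to 2863 (median 2148) in Plk2-null tumors and from 349 to 4213 (median 1859) in p53-null tumors, and the difference of 0.62 did not pass (adjusted p = 0.27).

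Of 34 tested genes within 5 Mb of Plk2 other than Plk2 itself, 11 were higher (32.4%) and 1 lower (2.94%), against 21.4% and 6.98% over all genes. The median difference of 0.39 was 0.14 with TMM and -0.09 with the correction. Within 10 Mb the counts were 23 and 4 of 80. Actbl2, an actin-like gene 860 kb from Plk2, was the farthest from the rest, running from 2.48 to 636 (median 258) in Plk2-null tumors and from 0 to 12.1 (median 3.74) in p53-null tumors, at 5.14 ± 0.80 (adjusted p = 1.35e-04). PLK2null-1970 was the 1 tumor of its group inside the p53-null range for Actbl2. The mean of Actbl2 was 268 in Plk2-null tumors and 4.26 in p53-null tumors. It therefore met the mean of 10 needed for testing through Plk2-null tumors alone. Slc38a9, a lysosomal amino acid sensor, ran from 386 to 833 (median 529.8) in Plk2-null tumors and from 84.8 to 291 (median 213) in p53-null tumors without overlap, at 1.41 ± 0.21 (adjusted p = 1.03e-04). Itga2, the collagen-binding integrin subunit, was higher by 1.72 ± 0.59 (adjusted p = 0.037). The others called higher were Gpbp1, Mier3, Dimt1, Ipo11, Kif2a, Zswim6, 3830408C21Rik and Gm28989, and the lower was the processed pseudogene Rps3a3 at -1.06. Of these, 3830408C21Rik and Gm28989 also met the mean of 10 through Plk2-null tumors alone. With the correction, Actbl2 and Slc38a9 were the only protein-coding genes in the 5 Mb window that were called (adjusted p = 0.00142 and 0.0356). Rad17, the checkpoint clamp loader gene just inside the 10 Mb window, was higher by 0.51 ± 0.14 (adjusted p = 0.00979), which did not hold with the correction (adjusted p = 0.788). Map3k1 and Pik3r1, on the same chromosome, differed by -0.15 and -0.20 and did not pass.

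**Figure D3:**
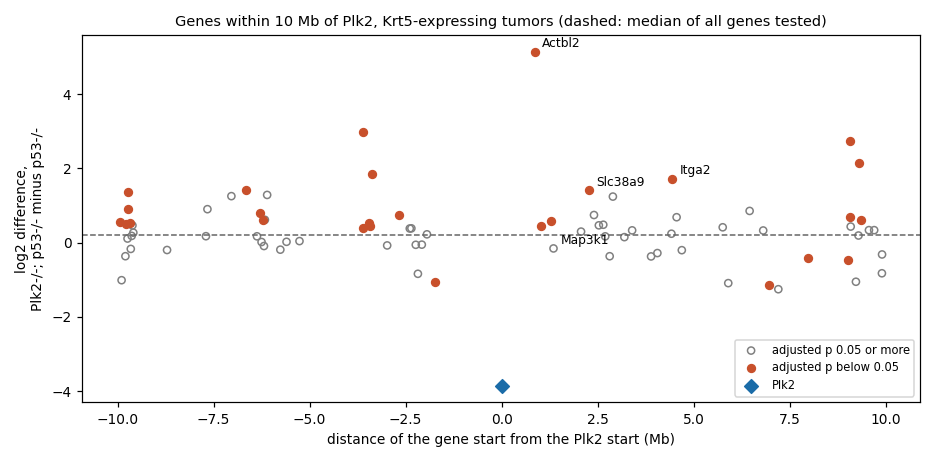
Log2 difference between genotypes in Krt5-expressing tumors for the 80 tested genes within 10 Mb of Plk2, against the distance of each gene start from that of Plk2 in Mb. Filled points passed the test, Plk2 stands at -3.85, and Actbl2 at 5.14 lies above every other gene plotted.

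Krt14 was lower, at a log2 difference of -2.56 ± 0.87 (adjusted p = 0.0346), although Krt5 itself had been held above a threshold in both groups. The groups overlapped, with 5 of the 10 p53-null tumors above the highest Plk2-null value of 4931. In bulk tumors fewer cells of a type and less RNA per cell cannot be told apart. The Krt14 call did not hold with the correction (adjusted p = 0.0841) or with 5 units (adjusted p = 0.168). Among the basal genes other than Krt5, 1 of 14 tested members was higher and 1 lower (7.14% each, against 21.4% higher and 6.98% lower over all genes), with a median of -0.91. The higher one was Dst, whose epithelial form anchors keratin at hemidesmosomes. It ran from 5062 to 18644 (median 9138) in Plk2-null tumors and from 258 to 4795 (median 2195) in p53-null tumors, without overlap, at 2.46 ± 0.51 (adjusted p = 0.00181). Dst is a very long gene, and with the correction its adjusted p was 0.0511.

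Of the genes of squamous differentiation, 0 of 15 tested members were higher and 3 lower, against 21.4% higher and 6.98% lower over all genes. The median over the list was -0.76 in Krt5-expressing tumors and 0.38 in tumors below the threshold. Sfn (14-3-3 sigma), a cell cycle inhibitor of stratified epithelium, ran from 641 to 3339 (median 891) in Plk2-null tumors and from 2021 to 9027 (median 3476) in p53-null tumors, at -1.91 ± 0.33 (adjusted p = 3.48e-04). PLK2null-7748 held the highest value of its group, and the other 7 lay below every p53-null tumor. Tgm1, the transglutaminase of the cornified envelope, was lower, at -1.53 ± 0.40 (adjusted p = 0.00885), and Lor, which encodes loricrin of the same envelope, at -1.78 ± 0.58 (adjusted p = 0.0291) at values of at most 204. Sfn was also called with 5 units (adjusted p = 0.00968) and with the correction (adjusted p = 0.00336), but Lor was called with neither. Tgm1 was not called with 5 units, and with both steps together no member of this list was called. Of 12 contractile genes of myoepithelial cells, 0 were called in either direction by limma, against 28.3% over all genes. The luminal list had 1 call among 16, on the lower side (6.25%, near the 6.98% over all genes). Krt18 was lower, at -1.71 ± 0.42 (adjusted p = 0.00589), and its partner Krt8, at -0.85 ± 0.90 (adjusted p = 0.514), did not pass. The tumor p53null-5317 held Krt8 at 198, far below the other 9.

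Genes of tight junctions and cell adhesion were called lower more than higher. In this list, 1 of 15 tested members were higher and 5 lower, against 6.98% lower among all genes, and the median was -0.93. Their summed value ran from 20529 to 70643 (median 36609) in Plk2-null tumors and 49901 to 129106 (median 61365) in p53-null tumors. Cldn8, a claudin that tightens the paracellular barrier, ran from 92.1 to 559 (median 154) in Plk2-null tumors and from 295 to 2520.5 (median 911) in p53-null tumors, at -2.32 ± 0.52 (adjusted p = 0.00297). Cldn7 ran from 138 to 4378 (median 1404) in Plk2-null tumors and from 1721 to 8981 (median 3946) in p53-null tumors, at -1.81 ± 0.53 (adjusted p = 0.0161), and PLK2null-7763 held the lowest value. Cldn3 was lower, at -1.44 ± 0.49 (adjusted p = 0.0367). Tjp3, a scaffold of the tight junction, was lower, at -1.25 ± 0.30 (adjusted p = 0.00492), and the epithelial adhesion gene Epcam was the fifth of the lower members. The member called higher was another scaffold, Tjp1, at 0.99 ± 0.23 (adjusted p = 0.00376), and it did not pass with the correction (adjusted p = 0.342). Cldn8 and Tjp3 were the 2 members of this list called with the correction. In tumors below the threshold the median over the list was 1.01. Among polarity and spindle orientation genes, Crb3, which marks the apical membrane, was lower, at -1.70 ± 0.34 (adjusted p = 0.00112) and Gpsm1, a regulator of spindle orientation, was higher by 0.98 ± 0.25 (adjusted p = 0.00791). The other 16 tested members did not pass, so 11.1% of that list was called, against 28.3% over all genes. With the correction 1 member of the list was called higher and 3 lower. Gpsm1 was not called with 5 units, and with both steps together neither Crb3 nor Gpsm1 was called.

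**Figure D4:**
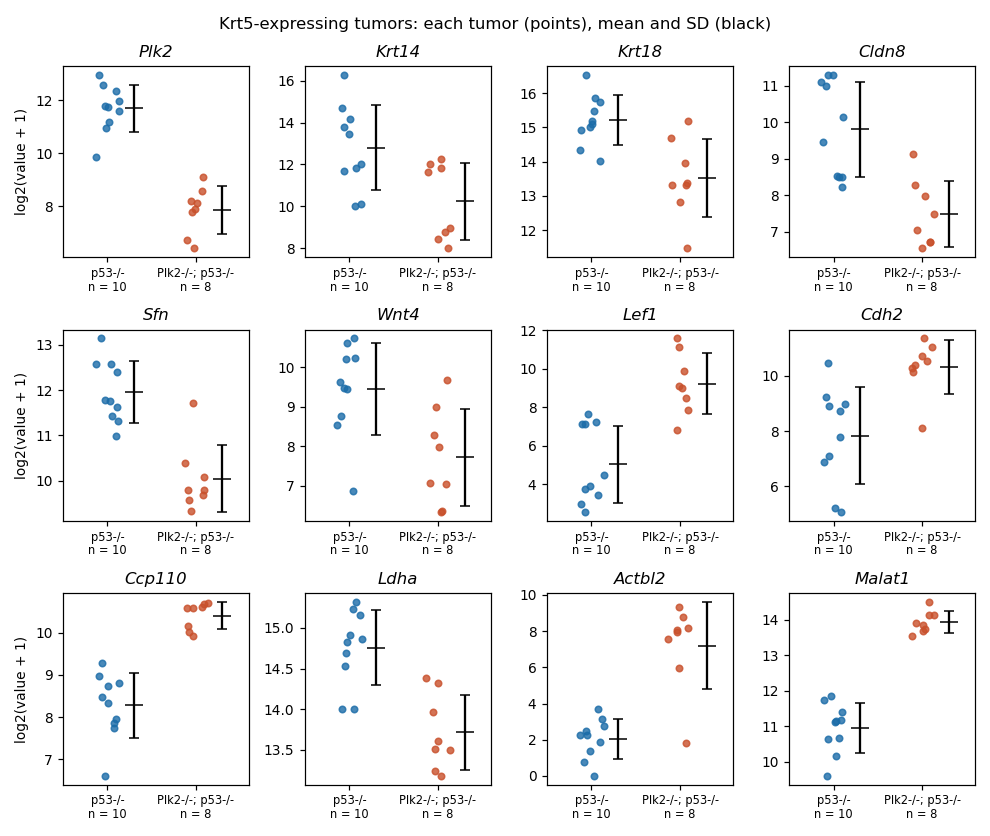
Values of 12 genes in each Krt5-expressing tumor (points) as log2(value + 1), with the mean and SD in black, for 10 p53-null and 8 Plk2-null tumors. The groups do not overlap for Plk2, Ccp110 and Malat1, and for Actbl2 1 Plk2-null tumor lies among the p53-null tumors.

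Of the mesenchymal genes, 3 of 12 tested members were higher (25.0%, near the 21.4% higher among all genes) and 0 lower, so the list's count does not stand apart and its members are described singly. Cdh2, which encodes N-cadherin, ran from 277 to 2609 (median 1421) in Plk2-null tumors and from 32.6 to 1391 (median 323) in p53-null tumors, at 2.49 ± 0.66 (adjusted p = 0.0089), and PLK2null-1970 was the lowest of its group. The repressors of epithelial genes Zeb1 and Zeb2 were higher by 1.64 ± 0.54 (adjusted p = 0.0302) and 1.25 ± 0.44 (adjusted p = 0.041). The others, among them Vim, Snai1, Snai2 and Twist1, were not called. With 5 units none of these 3 calls held (adjusted p = 0.0919, 0.12 and 0.152 for Cdh2, Zeb1 and Zeb2), and with the correction Cdh2 alone was called (adjusted p = 0.0354). In the Wnt list, 3 of 20 tested members were higher and 2 lower, against shares of 21.4% and 6.98% over all genes. Lef1, a transcription factor that acts with beta-catenin, ran from 112 to 3045 (median 530.3) in Plk2-null tumors and from 4.9 to 201 (median 17.8) in p53-null tumors, at 4.19 ± 0.82 (adjusted p = 0.0011). The groups overlapped, since 4 p53-null tumors (139 to 201) lay above the lowest Plk2-null tumor. Tcf7, of the same factor family, was higher, as was Znrf3 (1.02 ± 0.25 (adjusted p = 0.00602)), which removes Wnt receptors from the membrane. With 5 units and the correction together none of the 3 higher members was called. The ligands Wnt4 and Wnt10a were lower. Wnt4, the ligand that acts downstream of progesterone in mammary branching, ran from 79.3 to 821 (median 192) in Plk2-null tumors and from 115 to 1699.7 (median 744) in p53-null tumors, at -1.73 ± 0.54 (adjusted p = 0.0225), and was called with 5 units and the correction together (adjusted p = 0.039). Wnt10a was lower, at -2.77 ± 0.82 (adjusted p = 0.0174). Axin2, a common readout of the pathway, was not called. Of 16 Notch genes, 0 were called in either direction by limma, against 28.3% over all genes.

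Of 15 centriole duplication genes, 13 were higher and 0 lower, against 21.4% higher among all genes, with a median of 0.95. Ccp110, which caps the centriole's growing end, ran from 969.6 to 1653 (median 1529) in Plk2-null tumors and from 96.5 to 617 (median 338) in p53-null tumors, at 2.12 ± 0.29 (adjusted p = 3.58e-05). Cep97, its partner, was higher by 1.498 ± 0.207 (adjusted p = 4.36e-05), Cep135 by 1.27 ± 0.19 (adjusted p = 8.15e-05) and Cep152, which brings Plk4 to the centriole, by 1.01 ± 0.19 (adjusted p = 6.23e-04). The median transcript length of this list was 5629 bases, against 3113 over all genes, and with the correction 4 of the 15 were called, at a list median of 0.31. With 5 units 11 were called, and with both steps 0. A similar count was seen for DNA repair and checkpoint genes. Of 20, 13 were higher (65.0%) and 0 lower. Atm, the kinase that answers double-strand breaks, ran from 680.4 to 1598 (median 1220.3) in Plk2-null tumors and from 162 to 607 (median 379.7) in p53-null tumors, at 1.81 ± 0.29 (adjusted p = 2.09e-04). Atr, its counterpart for stalled replication, was higher by 1.19 ± 0.19 (adjusted p = 1.91e-04), Fancd2 by 1.25 ± 0.23 (adjusted p = 6.13e-04) and Brca2 by 1.22 ± 0.22 (adjusted p = 5.92e-04). With the correction Atm was the 1 member called higher (adjusted p = 0.0211), and 1 member was called lower, the end-joining gene Xrcc4 (adjusted p = 0.0494), which did not pass without it (adjusted p = 0.177). Of 22 mitotic spindle and proliferation genes, 4 were higher (18.2%, below the 21.4% over all genes), Mki67 by 1.30 ± 0.32 (adjusted p = 0.0055), Cenpe, Cenpf and Top2a, and with the correction 0 were called by limma. Aurka, Cdc20 and Birc5 were not called.

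Targets of p53 had 2 calls among 20, below the 28.3% over all genes, with a median of -0.07 in tumors that lack p53 in both groups. Ddit4l, a stress-induced inhibitor of mTOR signalling, was higher by 2.44 ± 0.74 (adjusted p = 0.0191), and Polk, a translesion polymerase, by 0.86 ± 0.21 (adjusted p = 0.00562). Neither was called with 5 units. The 4 alike tumors held Ddit4l at 1008 to 4054 and the other 4 Plk2-null tumors at 71.3 to 1235. Mdm2 did not pass, at 1.42 ± 0.79 (adjusted p = 0.192), and its values split within both groups. Among G1 genes Ccnd3 was lower, at -1.42 ± 0.48 (adjusted p = 0.0341) and Ccne2 higher by 0.76 ± 0.25 (adjusted p = 0.0296), and the other 17 were not called. The share called in the G1 list was 10.5%, below the 28.3% over all genes, and with 5 units neither Ccnd3 nor Ccne2 was called. Among receptor tyrosine kinases and ligands, 5 of 19 tested members were higher (26.3%) and 1 lower (5.26%), near the 21.4% and 6.98% over all genes. Insr, the insulin receptor, ran from 2219.7 to 34272 (median 10112) in Plk2-null tumors and from 956 to 3109 (median 1812) in p53-null tumors, at 2.15 ± 0.54 (adjusted p = 0.00624). The 4 alike tumors held Insr at 17035 to 34272 and the other 4 Plk2-null tumors at 2219.7 to 3190. Of those other 4, only PLK2null-1970 (3190) lay above the p53-null range, and the rest lay inside it. With 5 units the adjusted p of Insr was 0.0992. Fgfr1 was higher by 1.77 ± 0.55 (adjusted p = 0.0215), at 55682 to 104683 in the same 4 tumors, 7015 to 27644 in the other 4 and 4141 to 30485 in p53-null tumors, and with 5 units the adjusted p was 0.248. Erbb4 was higher by 2.28 ± 0.58 (adjusted p = 0.00657) at values of at most 171, and it met the mean of 10 needed for testing through Plk2-null tumors alone. Egf and Igf1r were also higher and Erbb2 lower. With the correction none of the 5 higher members was called. Met, the receptor of hepatocyte growth factor, did not pass (0.25 ± 0.92 (adjusted p = 0.867)), and 2 tumors stood apart. PLK2null-1970 held Met at 72377 and PLK2null-1971 at 18874, against at most 1008 in the other 6 Plk2-null tumors and 3849 in p53-null tumors. Of the Ras and PI3K genes Etv5 was higher by 1.48 ± 0.44 (adjusted p = 0.018), Spred2 by 0.57 and Pik3ca by 0.45. They were 16.7% of that list, below the 21.4% higher over all genes, and none of them was called higher with 5 units or with the correction. Pik3ca turned to the opposite sign with the correction, at -0.45.

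Of 17 hypoxia and glycolysis genes 4 were lower (23.5%, against 6.98% over all genes) and 0 higher, with a median of -0.57. Ldha, lactate dehydrogenase A, ran from 9285 to 21409 (median 12066) in Plk2-null tumors and from 16468 to 40780.5 (median 29394) in p53-null tumors, at -1.04 ± 0.22 (adjusted p = 0.00227). The glycolytic enzymes Pgk1 and Aldoa were lower, at -1.10 ± 0.27 (adjusted p = 0.0057) and -0.996 ± 0.323 (adjusted p = 0.0279), and the glucose transporter Slc2a1 at -1.23 ± 0.39 (adjusted p = 0.0254). Vegfa, Car9 and Adm, which hypoxia also induces, were not called. Ldha was the 1 member called with 5 units (adjusted p = 0.0443). Of 14 proteinase genes 3 were lower (21.4% of the list, against 6.98% lower over all genes) and 0 higher. Mmp9, Mmp2 and the inhibitor Timp1 were lower, at -2.63 ± 0.92 (adjusted p = 0.0399), -1.69 ± 0.53 (adjusted p = 0.0232) and -1.65 ± 0.58 (adjusted p = 0.0407), and none of these held with 5 units. Of 17 immediate-early genes 2 were lower (11.8%, against 6.98% over all genes) and 0 higher. These were Jund and Ier2, at -1.07 ± 0.23 (adjusted p = 0.00214) and -1.08 ± 0.33 (adjusted p = 0.0188), and Ier2 was not called with 5 units (adjusted p = 0.205). No milk protein, interferon-stimulated or replication-dependent histone gene was called by limma, against 28.3% over all genes. The milk genes varied widely, and the mitochondrially encoded genes were not analysed here.

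Markers of other cell types that a bulk tumor can hold were mostly not called. Among 12 T cell, 6 B and plasma cell, 12 macrophage, 12 neutrophil, 10 endothelial, 7 pericyte and 9 adipocyte genes, 0 passed the test with limma. Over all genes 28.3% passed. The summed T cell level ran from 252 to 1603 (median 422) in Plk2-null tumors and 331 to 1229.6 (median 653) in p53-null tumors. For macrophages it ran from 10650.2 to 52535 (median 24389) in Plk2-null tumors and 10938 to 63331 (median 28325) in p53-null tumors, and for endothelium from 3611 to 97568 (median 6400.1) in Plk2-null tumors and 2725 to 22009 (median 7035) in p53-null tumors. These ranges overlapped. Of 8 MHC class II genes 1 was lower (12.5%, against 6.98% over all genes), Cd74, the invariant chain, at -1.25 ± 0.44 (adjusted p = 0.0425). Of 12 MHC class I presentation genes 1 was lower (8.33%), Psmb10, an immunoproteasome subunit, at -0.93 ± 0.34 (adjusted p = 0.0472). Neither was called with 5 units or with the correction. In the fibroblast list 2 of 12 tested members were lower (16.7%), Col1a2 and Pi16, at -1.56 ± 0.57 (adjusted p = 0.0495) and -2.33 ± 0.70 (adjusted p = 0.0183). Neither was called with 5 units. The summed level of this list ran from 34004 to 125000 (median 47909.9) in Plk2-null tumors and 30219 to 299951 (median 72166) in p53-null tumors. Red blood cell genes had 4 of 6 lower (66.7%, against 6.98% over all genes), with Hba-a2 at -1.94 ± 0.51 (adjusted p = 0.00812). With 5 units 0 members of this list were called lower, and with the correction 1. Their summed level ran from 3005 to 22382 (median 4379.9) in Plk2-null tumors and 4667 to 45605 (median 15534) in p53-null tumors. The summed level of skeletal muscle genes did not overlap, from 52.4 to 81.3 (median 68.3) in Plk2-null tumors and 99.3 to 43997 (median 229) in p53-null tumors. Of 8 tested members 1 was lower (12.5%), Acta1, skeletal actin, at -3.32 ± 1.14 (adjusted p = 0.0367). It was not called with 5 units or with the correction. The part of blood, muscle and stroma in the lower genes above was not tested.

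**Figure D5:**
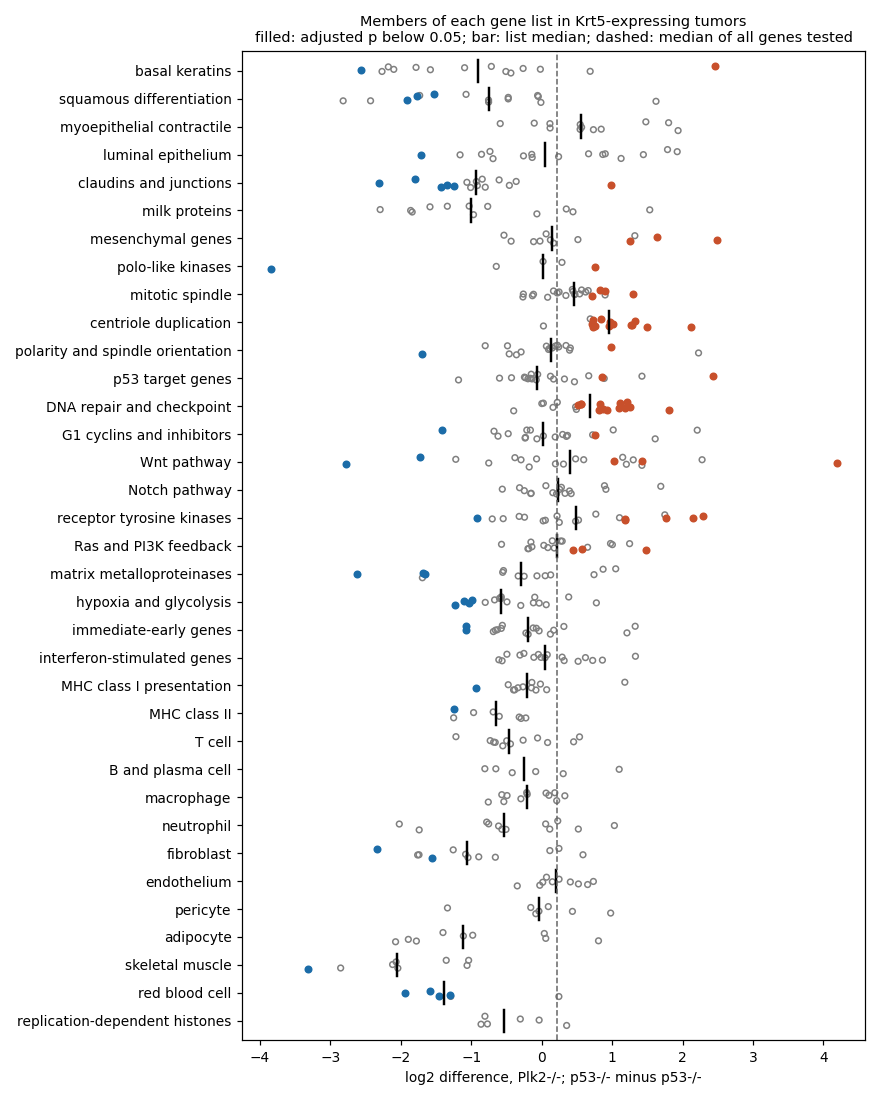
Log2 difference between genotypes for each tested member of 35 gene lists in Krt5-expressing tumors. Filled points passed the test, black bars are list medians and the dashed line is the median of all genes tested, 0.21. Filled points right of the line are most numerous for centriole duplication and for DNA repair and checkpoint (13 each), and left of it for claudins and junctions (5).

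Among genes whose groups did not overlap (851 of 17161, or 4.96%), 758 were higher in Plk2-null tumors (4.42%) and 93 lower (0.542%). After Plk2, the largest lower differences were Rpl6l (-1.75) and Rps27rt (-1.45), copies of ribosomal protein genes whose reads may be shared with the parent genes and are uncertain, Cblc (-1.72), a ubiquitin ligase adaptor of receptor kinases, Hcfc1r1 (-1.43), Cd82 (-1.39), Ndufb10 (-1.29), Eif6 (-1.27), Tkt (-1.26) and Mrpl14 (-1.26). Cd82, a membrane tetraspanin known as a suppressor of metastasis, ran from 1158 to 2471 (median 1697) in Plk2-null tumors and from 2716 to 8763 (median 4615) in p53-null tumors, at -1.39 ± 0.24 (adjusted p = 3.64e-04). Tkt, transketolase of the pentose phosphate pathway, ran from 2508 to 5026 (median 3924) in Plk2-null tumors and from 6068 to 17850.4 (median 7727) in p53-null tumors, at -1.26 ± 0.22 (adjusted p = 3.74e-04). Both were called with 5 units and the correction together (adjusted p = 0.0459 and 0.048). On the higher side Rbm44 and Rhox2a were at or under the floor of 3 reads in all 10 p53-null tumors. Of the Plk2-null tumors, 3 were at or under their own floor for Rbm44 and 1 for Rhox2a, so the groups are not separated above the floor, and both genes met the mean of 10 through Plk2-null tumors. Rbm44, a germ cell RNA-binding protein, ran from 1.1 to 304 in Plk2-null tumors, whose mean of log2(value + 1) was at least 3.14 higher than the highest floor of a p53-null library. Rhox2a, a homeobox gene of the reproductive Rhox cluster, ran from 1.45 to 416, with a mean at least 2.30 higher on the same scale. Pnldc1, a nuclease that trims piRNAs in germ cells, ran from 48.3 to 423 (median 165) in Plk2-null tumors and from 1.85 to 35.3 (median 10.8) in p53-null tumors, at 3.82 ± 0.46 (adjusted p = 1.14e-05), and Sycp1, of the meiotic synaptonemal complex, was higher by 3.46 ± 0.40 (adjusted p = 6.91e-06). Peg3, an imprinted zinc finger gene expressed from the paternal allele, ran from 2747 to 12309 (median 9952) in Plk2-null tumors and from 475 to 2262 (median 807) in p53-null tumors, at 3.08 ± 0.37 (adjusted p = 9.32e-06). Pnldc1, Sycp1 and Peg3 were called with 5 units and the correction (adjusted p = 0.00692, 0.0129 and 0.0251), as was Pcdhga11, a protocadherin (log2 difference 2.89). The other 4 were noncoding, namely Malat1, Tnk2os, Ube4bos3 and Gdap10 (3.34, 2.96 and 2.94 for the last 3).

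Krt5-expressing tumors of a genotype also differed widely among themselves. Among the genes with the largest SD in Plk2-null tumors were Otor, Fcer2a, Smr3a and Nxf3. Otor, a secreted protein, was at 3315 to 6300 in PLK2null-1963, PLK2null-1964, PLK2null-1965 and PLK2null-7747 and at most 288 in the others, and Fcer2a, the low-affinity IgE receptor, at 771 to 8415 against at most 76.8. The differences of Otor and Fcer2a passed the test with the 8 tumors counted singly and not with 5 units (adjusted p = 0.189 and 0.209). Nxf3 was at 6948 in PLK2null-7763 alone. In p53-null tumors the largest SDs were those of Csn1s2a, Csn2, Igf2, Fgb and Upk3a. The caseins Csn2 and Csn1s2a reached 257509 and 157125 in a single tumor, and Igf2, the imprinted growth factor, ran from 8.51 in p53null-2224L to 245176 in p53null-2153L. PLK2null-1970 lay apart from the other Plk2-null tumors for Trp63 (584), Met and Actbl2, and p53null-2224L held Mdm2 at 32230 against at most 5651 in the other 9.

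Whether the genotype difference depended on Krt5 was tested as an interaction over all 41 tumors, with 20 Plk2-null and 3 p53-null tumors below the threshold. Of 17208 genes, 22 passed (0.128%), 20 with a positive interaction (a more positive difference in Krt5-expressing tumors), and 2303 had an unadjusted p below 0.05. Below the threshold alone 2112 genes were called (12.3%). Plk2 was lower in both classes, by a log2 difference of -3.85 in Krt5-expressing tumors and -2.19 below the threshold, and the interaction did not pass (adjusted p = 0.387). Actbl2 differed by 5.14 in Krt5-expressing tumors and -0.99 below the threshold (interaction 6.14, adjusted p = 0.0178), with at most 12.1 in Krt5-expressing p53-null tumors. Pnldc1 and Cd82 had interactions of 4.14 and -1.77 (adjusted p = 0.0178 and 0.0241). Rbm44 also passed (5.55), but every Krt5-expressing p53-null tumor was at or under the floor of 3 reads, so its size is uncertain. The interaction did not pass for Krt14 (adjusted p = 0.789), Krt18 (adjusted p = 0.951), Cldn3 (adjusted p = 0.677) or Cldn7 (adjusted p = 0.566), so no difference was shown to be particular to Krt5-expressing tumors for these. The count rested on 3 p53-null tumors below the threshold and was 0 with a Krt5 threshold of 500 and 845 with a threshold of 5000.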

How the data were processed

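Total RNA of 41 untreated mouse mammary tumors was made into TruSeq mRNA libraries and sequenced in pairs of short reads. The submitters' processing notes name STAR 2.7.6a, Salmon 1.4.0, Picard 2.22.4, SAMtools and the mm10 build. The authors deposited a table of 47480 gene symbols holding Salmon gene-level estimates after upper-quartile normalisation, a linear signal that is not raw counts. Of each tumor's values, 77.8% to 80.5% lay within 0.1 read of a whole number, too few to recover reads, so no count test was run. Depth was estimated from the value of 1 read, and floors of 3 reads cover counting error only.

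The Krt5 rule (at least 1000) used measured values, and the members, gene lists and tests were chosen with earlier results of these data known. Genes averaging 10 or more over the tumors of a fit were tested with limma 3.58.1 (R 4.3.3) on log2(value + 1), as Plk2-null minus p53-null, with Benjamini-Hochberg adjustment at 0.05. Besides those marked above, called genes that met this mean through Plk2-null tumors alone included Pcdhga11, Tnk2os, Ube4bos3 and Gdap10. Lor and Acta1 met it through p53-null tumors alone. Dependence on Krt5 was tested as an interaction over 41 tumors. Scripts were tested on simulated data. Alternatives were pseudocounts of 10 and 0.1, filters, limma's trend, TMM (computed in R), quantile normalisation, other Krt5 thresholds and leaving out each tumor. Chosen after seeing the data were protein-coding genes only, a spline correction of each tumor for transcript length, GC content and gene span, the averaging of PLK2null-1963, PLK2null-1964, PLK2null-1965 and PLK2null-7747, both together, and a comparison limited to PLK2null-7747, PLK2null-7748 and PLK2null-7763. Positions came from GENCODE for GRCm38, which matched 95.0% of symbols. Genes named were polo-like kinases, keratins and other fixed genes, the 10 largest non-overlapping differences in each direction without predicted or clone-named genes, the 4 smallest p-values in each of 36 lists, called genes within 5 Mb of Plk2, and the 5 most variable genes of each genotype, of which 1 is not reported here. A few further list members are named as called or not called, chosen after their values were seen.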

Additional observations from a re-analysis of the deposited data

Results flagged for a closer look

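Among the genes named, 116 were screened in both genotypes (232 groups of 8 or 10 tumors) for a tumor far from the rest of its group on the log2 scale. Such a screen flags about 1 group in 20 by chance. It flagged 21 values, several of them in the same tumor. PLK2null-1970 stood low for Actbl2 (2.48), Cdh2 (277) and Trp63 (584) and high for Ier2 (4071) and Timp1 (1902). PLK2null-7763 stood high for Hba-a1 (3144), Hba-a2 (6335), Hbb-bt (979), Igf2 (8106) and Nxf3 (6948), and PLK2null-7748 for Sfn (3339). Among p53-null tumors, p53null-5317 stood high for Cep152 (461) and low for Krt8 (198) and Met (144), p53null-2224L high for Mdm2 (32229.6) and Fcer2a (121), p53null-5329 high for Csn1s2a (157125), p53null-2396R high for Mrpl14 (4301), p53null-10155 high for Zeb1 (1291), and p53null-2225L low for Slc38a9 (84.8). The screen also marked p53null-2225L for Rhox2a (0.970), a value under the floor of 3 reads that is not a measured difference between tumors.

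The genotype difference in Krt5-expressing tumors was set apart from that below the threshold, by the interaction test, for Actbl2 (6.14), Rbm44 (5.55), Pnldc1 (4.14) and Cd82 (-1.77), each on the log2 scale. These tests rested on 3 p53-null tumors below the threshold. In Krt5-expressing p53-null tumors, Rbm44 was always at or under the floor of 3 reads and Actbl2 was at most 12.1, so their sizes are uncertain.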

How the results depend on the processing

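The count of 4863 genes that differed between genotypes ran from 3962 to 5048 when each tumor was left out and stayed within 1.5 times under the pseudocounts, filters, limma trend, TMM, quantile normalisation, other Krt5 thresholds and protein-coding genes only. It was 1707 (1409 higher, 298 lower) with Krt5 and Krt14 of at least 1000, which kept 4 Plk2-null tumors, and, in alternatives chosen after seeing the data, 1778 (837 higher) with the length, GC and span correction, 2393 (1966 and 427) with 5 Plk2-null units, 221 (142 and 79) with both, and 1220 (989 and 231) for PLK2null-7747, PLK2null-7748 and PLK2null-7763 against p53-null tumors. The higher and lower counts were 2305 and 2348 with TMM and 2351 and 2104 with quantile normalisation, and 5531 genes were higher with no filter. The interaction count of 22 was 44 and 10 with pseudocounts of 10 and 0.1, 10 with the filter at 100, 38 with no filter, 14 with limma trend and with TMM, 845 with a Krt5 threshold of 5000, and 0 with a threshold of 500 (1751 genes at an unadjusted p below 0.05) or with Krt5 and Krt14 of at least 1000 (1057).

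Of 98 genes named with a call, 69 were called whichever tumor was left out. With 5 units 47 of the 98 held and 51 lost the call. With the correction 44 held and 38 lost it, and with both steps 12 held and 70 lost it. The sign turned with the correction, and then with both steps, for Cenpf (-0.13, -0.18), Gpbp1 (-0.031, -0.11), Ipo11 (-0.12, -0.084), Kif2a (-0.25, -0.28), Mier3 (-0.072, -0.14) and Pik3ca (-0.45, -0.51). Among 17 genes without a call, Csn2 turned to -0.19 with a pseudocount of 10, -0.048 with quantile normalisation, -0.27 at a threshold of 5000, -0.20 with the correction and -0.39 and -0.14 without p53null-2153L or p53null-5317 (up to 1.61 without another tumor). Map3k1 turned to 0.21 with the Krt14 condition and 0.0041 without p53null-10151 (from -0.30 without another tumor), and Pik3r1 to 0.057 without p53null-10152 (from -0.36). Met turned to -0.83 at 5000, -0.45 with the correction, -1.08 for PLK2null-7747, PLK2null-7748 and PLK2null-7763, and -0.51 to -0.13 without PLK2null-1970, PLK2null-1971 or p53null-5317 (up to 0.56 without another tumor). Plk3 turned to -0.23 with TMM, -0.25 with quantile normalisation and -0.15 to -0.0050 without p53null-10151, p53null-10152, p53null-2331L, PLK2null-1964 or PLK2null-1970 (up to 0.12 without another tumor). Trp63 turned to -0.39 with both steps. For the correction the cause was not tested. No paired analysis was possible because the groups compared share no replicate numbers.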
